A study of Mus musculus with 2 samples.

Results

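The CS CFUE pool is a set of red cell progenitors from mouse fetal liver, read by single-cell RNA sequencing. Its members were chosen by the name CS CFUE in the deposited cell table and by measured transcripts: left out were cells whose 4 adult globin transcripts summed to 20 or more per 10000 or that held 5 or more UMIs of Mpo. A UMI (unique molecular identifier) counts 1 captured RNA molecule, and Mpo encodes the myeloperoxidase of granulocyte precursors. Of 195 cells of that name, 12 were left out for globin and 3 for Mpo, 1 of them for both, which left 181 members of 3357 cells in all. All members came from 1 library, in which 2453 cells were stained with barcoded antibodies (CITE-seq).

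The cells came from livers of C57BL/6 embryos at E14.5 of gestation, and the labels call the cell type CD71/CD24low. The series design describes the CITE-seq cells as depleted of other blood lineages. Its antibodies recognised CD117, the receptor encoded by Kit, and CD71, the transferrin receptor encoded by Tfrc. They carried these barcodes, shown because they define the surface proteins of this library, with every barcode base in capitals:

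CD117: TGCATGTCATCGGTG

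CD71: ACCGACCAGTAGACA

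The antibody counts were not used here. What CS stands for, how cells received the name and how many embryos gave cells were not given in the sources used here. In the labels there are also 10 days in expansion medium with methanol or 100 uM of the glucocorticoid dexamethasone, and it was not stated whether the sequenced cells had this growth. For comparison the same exclusions were applied to CS BFUE (86 cells, same library) and, in the second library, to 4 isolations that carried hashing barcodes. These were FACS CFU-E (161 cells), PE-high (219), FACS BFU-E (158) and PE-low (164), all of the same strain, age and cell type label. FACS is fluorescence-activated cell sorting, and the labels name a magnet method beside it.

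Fetal liver is the site where definitive red cells are made before birth. The early committed progenitor is named BFU-E after the burst of colonies it forms (burst-forming unit, erythroid). Its descendant, the CFU-E (colony-forming unit, erythroid), depends on erythropoietin and begins to build heme, iron uptake and the membrane skeleton. Globin genes are switched on strongly only in the erythroblasts that follow.

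The members held 6778406 UMIs together. A member had between 21289 and 49893 UMIs (median 37537) and between 4065 and 6211 detected genes (median 5324). Mitochondrial transcripts took 0.933% to 5.48% of a member's UMIs (median 3.52%), and ribosomal protein transcripts took 23.8% to 36.6% (median 30.2%). The ribosomal median was 32.6% in CS BFUE, 22.7% in FACS CFU-E cells and 22.1% in PE-high. No cell barcode was shared by the libraries. The globin sum ranged over 0 to 18.0 per 10000 among members (median 2.35). Of the cells nearest the globin limit, those inside stood at 18.0 and 16.2, and those outside at 20.4 and 21.9. The highest Mpo count inside was 1 UMI, in 4 cells, and cells outside held 9 to 14.

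Each pool is a set of cells from 1 of the 2 libraries, CS CFUE and CS BFUE from the same one, with no replicate of any pool, so no difference between pools has a replicate check and no p-value is given. Levels are a pool's summed UMIs per 1000000 of its total (CPM), a 3' count with no length term. Ratios carry 95% exact binomial intervals that cover counting error only. A gene was compared where either pool had 50 CPM or more of it and either pool had it in 10% or more of its cells. A ratio of 1.5 or more either way is called past the fold, which is a size and not a test. The cell names may rest on the transcripts compared, so CS CFUE against CS BFUE is a description of the pools.

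The 6 markers of the label were all past the fold higher in CS CFUE, where 8.70% of all compared genes were, and 4 of them passed the 50 CPM filter through CS CFUE alone, which fixed their direction. Mrap, an accessory protein of melanocortin receptors, stood at 50.2 CPM in CS CFUE and 1.41 in CS BFUE, where it rested on 3 UMIs (35.5-fold, 12.1 to 173). Cldn13, a claudin, stood at 161 CPM in CS CFUE against 9.88 in CS BFUE (16.3-fold, 10.6 to 26.4). Rgcc, a regulator of the cell cycle, reached 347 CPM in CS CFUE against 23.5 in CS BFUE (14.7-fold, 11.1 to 19.9). All but Mrap were detected in nearly all members, and Mrap in 60.2% of them. Cd24a, the CD24 surface protein, stood at 283 CPM in CS CFUE and 64.5 in CS BFUE (4.39-fold). Tfrc stood at 275 CPM in CS CFUE against 74.8 in CS BFUE (3.68-fold), and Ccne1, the cyclin that opens S phase, at 124 CPM in CS CFUE against 34.3 in CS BFUE (3.61-fold). The labels call the cells low in CD71 and CD24 without saying how this was read, and RNA of both genes was detected in at least 99.4% of members.

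Cells were also compared at equal depth, with each thinned at random to 15000 UMIs, which kept 181 CS CFUE, 84 CS BFUE, 158 FACS CFU-E and 219 PE-high cells. Rgcc had 0 to 13 thinned UMIs per cell in CS CFUE (median 5) and 0 to 3 in CS BFUE (median 0). Tfrc had 0 to 11 in CS CFUE (median 4) and 0 to 5 in CS BFUE (median 1). Cldn13 had 0 to 10 (median 2) in CS CFUE and 0 to 1 (median 0) in CS BFUE. The cells of the pools overlapped in each of these genes, at the low counts. Kit, the stem cell factor receptor, ran the other way, with 0 to 6 thinned UMIs in CS CFUE (median 1) and 0 to 16 in CS BFUE (median 2). With a UMI after thinning, Mrap was found in 43.6% of CS CFUE cells (36.3 to 51.2, exact Clopper-Pearson) and in 2.38% of CS BFUE cells (0.29 to 8.34). The Mrap share was 57.6% in FACS CFU-E, PE-high having 50.7%.

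**Figure D1:**
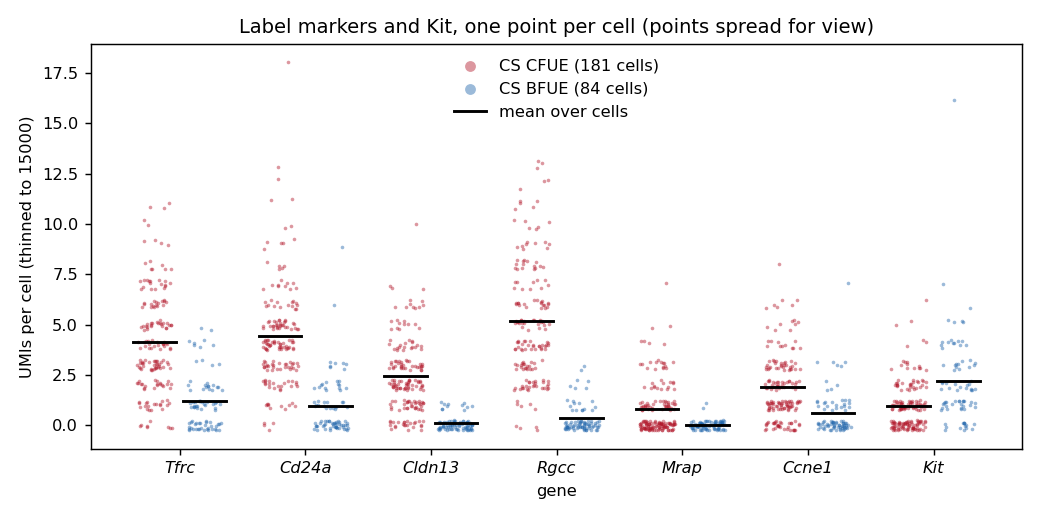
UMIs per cell after thinning to 15000 (vertical axis) for the 6 label markers and Kit (horizontal axis), with CS CFUE at the left of each pair and CS BFUE at the right. Each point is a cell, moved slightly for view, and bars are means over cells. Rgcc has a median of 5 in CS CFUE and 0 in CS BFUE, and Kit is the gene with the lower bar in CS CFUE.

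Across 3022 compared genes, 263 (8.70%) were past the fold higher in CS CFUE than in CS BFUE and 198 (6.55%) were lower. The median log2 ratio was 0.07, and with that median set to 0 the split was 213 higher (7.05%) and 240 lower (7.94%). Of the genes past the fold, 130 higher and 126 lower ones passed the 50 CPM filter in 1 pool only, so their direction follows from the filter. The 12 highest and 12 lowest ratios are all of this kind. The highest ratios beside the markers belonged to Tmem56 (76.7 CPM in CS CFUE, 5.18 in CS BFUE) and Arhgdig, an inhibitor of small GTPases (83.6 CPM in CS CFUE, 5.65 in CS BFUE). Nxpe2 stood at 178 CPM in CS CFUE and 21.2 in CS BFUE (8.42-fold, 6.25 to 11.6). Hemgn, a nuclear protein of blood-forming cells, stood at 151 CPM in CS CFUE against 21.2 in CS BFUE (7.15-fold, 5.30 to 9.86). Sphk1, the kinase that makes sphingosine 1-phosphate, stood at 75.5 CPM in CS CFUE and 9.41 in CS BFUE (8.03-fold). The non-coding transcript Asb17os stood at 56.1 CPM in CS CFUE against 6.59 in CS BFUE (8.51-fold).

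**Figure D2:**
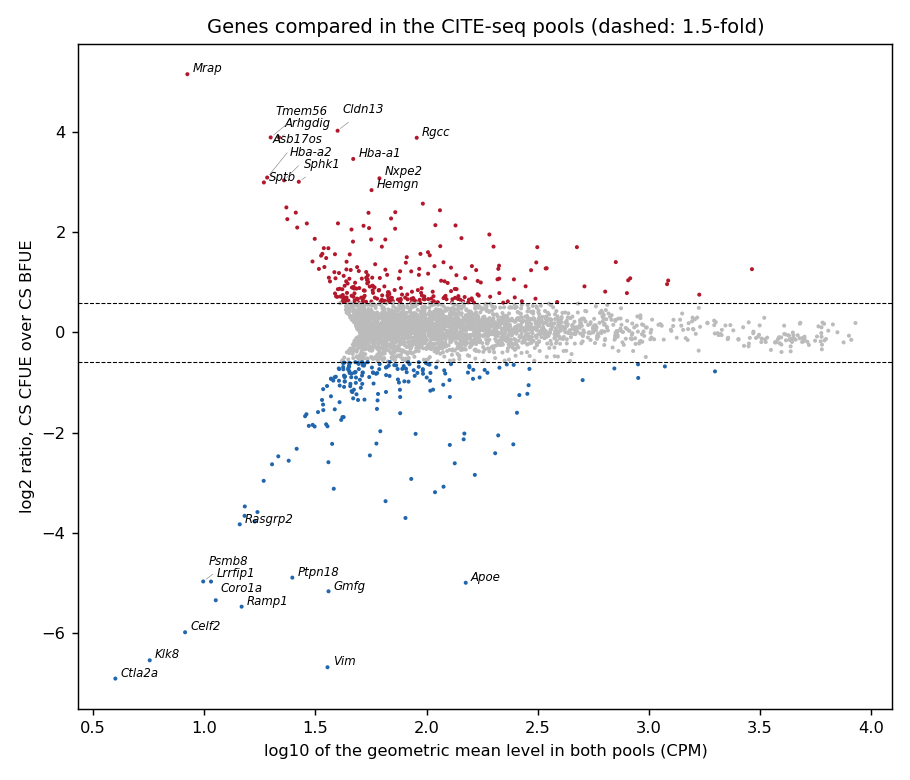
Log2 ratio of CS CFUE over CS BFUE (vertical axis) against the log10 geometric mean CPM of both pools (horizontal axis) for 3022 genes. Red and blue points lie past 1.5-fold, and the 12 highest and 12 lowest are named. The lowest value, Ctla2a at 0 UMIs in CS CFUE, is drawn at the limit set by 3 UMIs.

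Bases upstream of 3 of these highest genes are shown because the genes were high together in CS CFUE. They are the 250 bases before the RefSeq start on GRCm38.p6, written 5′ to 3′ along the gene. Capitals mark the word AGATAA, the word AGATAG, the word TGATAA and the word TGATAG on either strand, forms of the core that GATA factors such as the erythroid factor GATA1 bind:

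Rgcc, chr14:79301636-79301885, strand minus: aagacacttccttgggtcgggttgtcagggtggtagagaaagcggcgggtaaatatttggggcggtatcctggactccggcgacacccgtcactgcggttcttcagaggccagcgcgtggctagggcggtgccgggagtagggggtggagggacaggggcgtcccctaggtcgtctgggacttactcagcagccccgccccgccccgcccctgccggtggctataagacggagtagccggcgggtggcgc

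Nxpe2, chr9:48340899-48341148, strand minus: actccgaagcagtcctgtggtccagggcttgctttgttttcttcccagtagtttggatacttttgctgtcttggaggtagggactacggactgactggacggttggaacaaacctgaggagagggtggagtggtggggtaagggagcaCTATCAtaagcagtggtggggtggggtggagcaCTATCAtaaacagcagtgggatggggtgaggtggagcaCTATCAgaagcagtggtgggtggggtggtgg

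Hemgn, chr4:46404184-46404433, strand minus: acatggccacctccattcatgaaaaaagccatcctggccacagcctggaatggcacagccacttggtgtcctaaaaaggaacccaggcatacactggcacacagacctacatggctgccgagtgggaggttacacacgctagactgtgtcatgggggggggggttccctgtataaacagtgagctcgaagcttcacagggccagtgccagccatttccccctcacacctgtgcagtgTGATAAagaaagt

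The Nxpe2 window held 3 matches, the Hemgn window 1 and the Rgcc window 0. All 3 in Nxpe2 are the same word within a repeated stretch, so they are not independent occurrences. At least 3 matches were present in 1.35% of 32851 windows in the table. Of the 12 highest genes, 8 had an entry, and 6 of these held a match in at least 1 of their windows, against 29.7% of 27025 genes. Counted by window, 7 of their 12 windows held a match, against 26.5% of all windows. The 6 genes include Hba-a1 and Hba-a2, near-identical copies whose levels the member rule used, so the share is not a result about the pool. These letters were searched after the ratios were known, and a match is a description and not a binding site.

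Genes of an early progenitor list were lower in CS CFUE. Of its 13 compared members, 12 (92.3%) were past the fold lower in CS CFUE and 0 higher, against 6.55% lower over all compared genes. The median log2 ratio was -3.12 against 0.07 over all genes, and 8 of the 12 entered through CS BFUE alone. Like all lists here, the early progenitor list was chosen with earlier results of these data known, so its direction is no separate evidence. Vim, the filament protein vimentin, stood at 3.54 CPM in CS CFUE and 364 in CS BFUE (103-fold lower). Apoe, a lipid carrier protein, stood at 26.6 CPM in CS CFUE and 848 in CS BFUE (31.9-fold lower). Ctla2a, a protease inhibitor, had 0 UMIs in CS CFUE and 53.2 CPM in CS BFUE, at least 120-fold lower when 3 UMIs in the pool are taken as the floor. Ramp1, a peptide receptor subunit, stood at 2.21 CPM in CS CFUE against 98.3 in CS BFUE and Celf2, an RNA-binding splicing regulator, at 1.03 CPM in CS CFUE against 65.4 in CS BFUE. Outside the list, the actin regulators Coro1a (1.77 CPM in CS CFUE, 72.0 in CS BFUE) and Gmfg (6.05 CPM in CS CFUE, 217 in CS BFUE) were low as well. So were the protease Klk8 (0.59 CPM in CS CFUE, 55.1 in CS BFUE), Lrrfip1 (1.92 CPM in CS CFUE, 60.2 in CS BFUE), the phosphatase Ptpn18 (4.57 CPM in CS CFUE, 136 in CS BFUE) and Rasgrp2, an activator of Rap GTPases (3.84 CPM in CS CFUE, 54.6 in CS BFUE). These genes outside the list also passed the filter through CS BFUE alone.

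Of 31 compared members of a CFU-E stage list, 30 were past the fold higher and 0 lower (median log2 ratio 1.88), 15 of them entering through CS CFUE alone. The list was chosen with earlier results of these cells known and holds the label markers, so its direction is no separate evidence. In heme biosynthesis 11 of 14 (78.6%) were higher, 4 of them entering through CS CFUE alone, and 0 lower (median 1.14), against 8.70% higher over all compared genes. Slc25a38, the mitochondrial glycine carrier, stood at 64.8 CPM in CS CFUE against 20.2 in CS BFUE (3.20-fold). Tspo2, a porphyrin-linked membrane protein of erythroid cells, stood at 177 CPM in CS CFUE against 58.3 in CS BFUE, and the heme-binding Hebp1 at 377 CPM in CS CFUE against 97.4 in CS BFUE. Alas2, the erythroid form of the first enzyme and named after its value was seen, held 8 UMIs in CS CFUE (1.18 CPM) and 0 in CS BFUE.

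In iron handling 5 of 10 compared members (50%) were higher and 0 lower (median 0.48), against 8.70% higher over all compared genes. The highest ratio of the 5 was that of the label marker Tfrc, so the count is not separate from the label. Fth1, the heavy chain of the iron store ferritin, stood at 4492 CPM in CS CFUE and 1875 in CS BFUE (2.40-fold, 2.32 to 2.48). Ftl1, the light chain, stood at 1683 CPM in CS CFUE against 864 in CS BFUE, and Glrx5, needed for iron-sulphur clusters, at 842 CPM in CS CFUE against 479 in CS BFUE. In the red cell membrane list 11 of 15 (73.3%) were higher and 1 lower (median 1.39), 8 of the higher ones entering through CS CFUE alone. Sptb, the beta chain of spectrin, stood at 52.4 CPM in CS CFUE and 6.59 in CS BFUE (7.95-fold, 4.68 to 14.7). The blood group proteins Rhd (234 CPM in CS CFUE, 39.5 in CS BFUE) and Rhag (152 CPM in CS CFUE, 31.5 in CS BFUE) and the adducin Add2 (109 CPM in CS CFUE, 24.9 in CS BFUE) followed. Slc4a1, the anion exchanger of mature red cells and named after its value was seen, held 13 UMIs in CS CFUE (1.92 CPM) and 1 in CS BFUE.

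Globin sums were used to choose the cells of both pools, so globin levels are given as a description. All 4 adult globin genes passed the 50 CPM filter through CS CFUE alone, which fixed their direction. Hba-a1 stood at 155 CPM in CS CFUE and 14.1 in CS BFUE, and Hba-a2 at 65.5 CPM in CS CFUE against 8.00 in CS BFUE. Hbb-bs stood at 60.0 CPM in CS CFUE against 16.5 in CS BFUE and Hbb-bt at 74.2 CPM in CS CFUE against 35.3 in CS BFUE. The alpha pair and the beta pair are near-identical copies, so their reads may be split unevenly. Embryonic Hbb-y and Hbb-bh1 had 0 UMIs in CS CFUE.

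Among signalling genes the directions were mixed. Epor, the erythropoietin receptor, stood at 144 CPM in CS CFUE and 59.8 in CS BFUE (2.41-fold, 2.00 to 2.92). Kit stood at 73.3 CPM in CS CFUE against 137 in CS BFUE (1.87-fold lower), the phosphatase Ptpn6 at 16.4 CPM in CS CFUE against 60.2 in CS BFUE and the adaptor Grb2 at 69.5 CPM in CS CFUE against 156 in CS BFUE. Of 6 compared members of this list 1 (16.7%) was higher and 3 (50%) lower, against 8.70% higher and 6.55% lower over all compared genes. Of 24 erythroid transcription factors 5 (20.8%) were higher and 6 (25%) lower (median 0.07). Of these factors 1 higher and 3 lower ones passed the 50 CPM filter in 1 pool only. So did 1 of the 3 lower signalling genes, and the direction of all such genes follows from the filter. E2f4, a cell cycle factor, stood at 202 CPM in CS CFUE and 82.3 in CS BFUE, and Gfi1b, a repressor, at 109 CPM in CS CFUE against 51.8 in CS BFUE. Myb stood at 169 CPM in CS CFUE against 403 in CS BFUE and Mef2c at 13.0 CPM in CS CFUE against 113 in CS BFUE. Named after their values were seen, Gata1 stood at 124 CPM in CS CFUE and 104 in CS BFUE, Klf1 at 356 CPM in CS CFUE and 171 in CS BFUE, and Gata2 at 1.03 CPM in CS CFUE and 31.5 in CS BFUE.

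Cell cycle lists differed little as a whole. Of 39 S phase genes 4 were higher and 0 lower (median 0.14), and of 39 G2/M genes 3 were higher and 0 lower (median 0.20). These shares, 10.3% and 7.69%, lie near the 8.70% over all compared genes, so the genes named here are examples and not a result about the lists. Beside Ccne1 the S phase genes included Rrm2, a subunit of ribonucleotide reductase, at 157 CPM in CS CFUE and 94.6 in CS BFUE (1.66-fold, 1.42 to 1.94). The replication licensing genes Cdc6 (78.3 CPM in CS CFUE, 50.3 in CS BFUE) and Mcm2 (138 CPM in CS CFUE, 91.3 in CS BFUE) stood just past the fold. The mitotic kinase Aurka (101 CPM in CS CFUE, 59.8 in CS BFUE) and the cyclins Ccna2 (175 CPM in CS CFUE, 110 in CS BFUE) and Ccnb1 (178 CPM in CS CFUE, 113 in CS BFUE) made up the G2/M genes. With the median log2 ratio of all genes set to 0, Cdc6, Mcm2 and Ccnb1 fall short of the fold. Of 10 cyclins, CDKs and inhibitors 5 (50%) were higher and 1 lower, the G1 kinase Cdk6 (125 CPM in CS CFUE, 210 in CS BFUE). The 5 include the label markers Rgcc and Ccne1, which entered through CS CFUE alone, so this share is partly set by the label. Among 17 histone genes 0 were higher and 4 (23.5%) lower, 1 of them through CS BFUE alone, against 6.55% lower over all compared genes. The macroH2A gene H2afy led them (103 CPM in CS CFUE, 428 in CS BFUE).

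The counts of the smaller lists below stand beside 8.70% higher and 6.55% lower over all compared genes. Ribosome building and growth (6.06% lower), glycolysis (8.33% lower) and heat shock (6.67% higher) lie near these shares, so their genes are examples and not a result about the lists. Of 33 genes of ribosome building and growth 0 were higher and 2 lower, Nme2 (652 CPM in CS CFUE, 1226 in CS BFUE) and Myc (123 CPM in CS CFUE, 196 in CS BFUE). In glycolysis, with 2 higher and 1 lower of 12, the 2 pyruvate kinase genes lay on opposite sides. Pklr, the liver and red cell form, stood at 113 CPM in CS CFUE and 26.8 in CS BFUE (4.23-fold, 3.23 to 5.64). Pkm, the form of most other cells, stood at 141 CPM in CS CFUE against 237 in CS BFUE (1.68-fold lower). Of 12 genes of the Atf4 amino acid response 3 were higher and 0 lower, led by Asns, asparagine synthetase (336 CPM in CS CFUE, 134 in CS BFUE). Of 19 oxidant defence genes 5 were higher, among them Prdx2 (1745 CPM in CS CFUE, 853 in CS BFUE) and Blvrb (1196 CPM in CS CFUE, 567 in CS BFUE), and 1 was lower. Of 7 interferon and MHC genes 1 was higher and 5 lower, with the immunoproteasome subunit Psmb8 at 1.77 CPM in CS CFUE and 55.5 in CS BFUE. The lysosomal reductase Ifi30 was the higher gene (148 CPM in CS CFUE, 35.3 in CS BFUE). Of 4 compared glucocorticoid and metallothionein genes 2 were higher and 1 lower. The metal-binding Mt2 stood at 855 CPM in CS CFUE against 263 in CS BFUE and Mt1 at 2183 CPM in CS CFUE against 1296 in CS BFUE, while Zfp36l2, an RNA-binding protein of BFU-E renewal, stood at 117 CPM in CS CFUE against 223 in CS BFUE. Of 15 heat shock genes 1 was higher, Dnajb1 (59.3 CPM in CS CFUE, 38.1 in CS BFUE, short of the fold with the median set to 0), and 0 were lower. Of 2 immediate early genes, 1 was lower, again Myc. In these smaller lists, genes that entered through 1 pool alone included both higher genes of glycolysis, and 1 higher and 3 lower ones of the interferon and MHC list.

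The contrast was also made between FACS CFU-E and FACS BFU-E in the second library, with no cell in common. Over 2941 genes compared in both, the log2 ratios had a Pearson r of 0.946 across genes, which are not independent replicates. Of 255 genes higher in CS CFUE, 167 (65.5%) were also higher in FACS CFU-E, which is 84.3% of its 198. Of 175 lower genes 146 (83.4%) were also lower, 76.0% of the 192 there, and 0 genes were past the fold in opposite directions. The same was read from PE-high over PE-low, with an r of 0.941 over 2931 genes. There 130 of 254 higher genes (51.2%) were past the fold the same way, 98.5% of the 132 of that contrast, and 125 of 174 lower genes (71.8%), 96.2% of the 130 there, with 0 in opposite directions.

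Lists of granulocyte, mast cell, monocyte, megakaryocyte and lymphoid markers each summed to under 10 CPM in CS CFUE. The granulocyte list summed to 1.92 CPM in CS CFUE and 47.5 in CS BFUE, with Elane at 0 UMIs, and the mast and basophil list to 1.33 CPM in CS CFUE and 35.3 in CS BFUE. The granulocyte list holds Mpo, and cells with 5 or more Mpo UMIs were left out of both pools. Its low sum is therefore partly set by the exclusion. The monocyte and macrophage list summed to 3.10 CPM in CS CFUE and 26.8 in CS BFUE, the megakaryocyte list to 8.11 CPM in CS CFUE and 31.1 in CS BFUE, and the stem cell list to 22.1 CPM in CS CFUE and 180 in CS BFUE with Cd34 at 0 UMIs in CS CFUE. The endothelial list summed to 98.3 CPM in CS CFUE and 131 in CS BFUE, with a UMI in 172 members. Of its 666 UMIs in CS CFUE, 663 belonged to Egfl7, which encodes a secreted protein, while Cdh5 had 1, Pecam1 had 2, and Kdr and Esam had 0. Of 31 lymphoid list UMIs, 30 sat in 1 member, which held 16 UMIs of Ighm, the heavy chain of IgM. The hepatocyte list stood at 145 CPM in CS CFUE and 29.2 in CS BFUE. These were 986 UMIs in CS CFUE, of which 416 and 348 sat in 2 members, and no other member had more than 4. Without those 2 members the list stood at 33.1 CPM. Alb, encoding serum albumin, had a UMI in 42.0% of CS CFUE cells (34.7 to 49.5), 18.6% of CS BFUE cells, 1.86% of FACS CFU-E cells and 4.11% of PE-high cells. The median depth was 37537 UMIs in CS CFUE, 24247 in CS BFUE, 38335 in FACS CFU-E cells and 39792 in PE-high.

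Within the pool, spread was measured as the excess CV, the cell-to-cell standard deviation beyond counting error divided by the mean, on thinned counts. Among 1186 genes with a mean of at least 2 thinned UMIs, 23 (1.94%) reached 0.5, and the median was 0.17. FACS CFU-E had 25 of 1320 genes (1.89%) at that size, while PE-high had 43 of 1346 (3.19%). Of the 23, 11 also reached it in FACS CFU-E cells and 15 in PE-high, and 12 (52.2%) were members of the S phase, G2/M or histone lists, which held 54 (4.55%) of the 1186 genes.

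**Figure D3:**
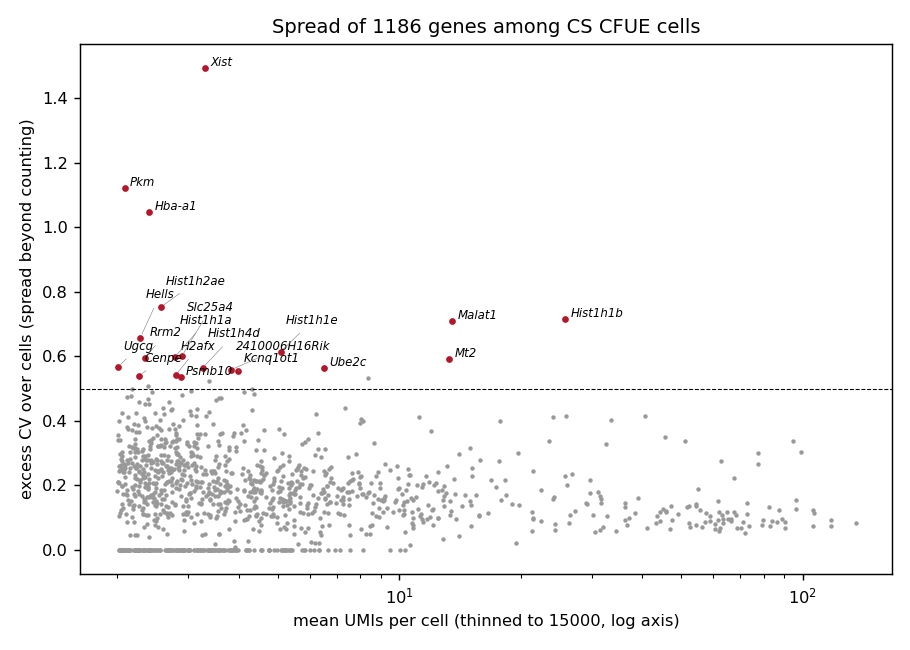
Excess CV among 181 CS CFUE cells (vertical axis) against mean UMIs per cell after thinning to 15000 (horizontal log axis) for 1186 genes, with 0 drawn where the spread did not exceed counting. Red points are the 20 genes of largest excess CV, from Xist at 1.49 to Psmb10 at 0.54, and the dashed line is 0.5.

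Xist, the RNA that coats the inactive X chromosome of females, had the largest excess CV, 1.49, with 0 thinned UMIs in 113 members and up to 23 in others. Before thinning, 58 members held Xist and no UMI of 4 Y-linked genes, 107 held Y-linked UMIs and no Xist, 13 held both and 3 neither. Among the 13, Xist had a median of 1 UMI, and 1 cell had at least 5 UMIs of each kind. No doublet caller was run.

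Histone and cell cycle genes among them are given next. Hist1h1b, a linker histone, ranged over 0 to 80 thinned UMIs (median 24, excess CV 0.71) and was at 0 in 12 members. Hist1h2ae reached an excess CV of 0.75, Hist1h1e 0.61, Hist1h1a 0.60 and Hist1h4d 0.56. Hells, a chromatin remodeller of replicating cells, had 0.66 and Rrm2 0.60. Ube2c, which marks mitotic cyclins for destruction, had 0.56, the kinetochore motor Cenpe 0.54 and the histone variant H2afx 0.54. The nuclear RNA Malat1 ranged over 0 to 67 UMIs (median 11, excess CV 0.71), and Kcnq1ot1, an imprinted non-coding RNA, had 0.56. Hba-a1 ranged over 0 to 18 UMIs (median 1, excess CV 1.05), within the limit that the exclusion put on globin.

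Among the other genes of large spread, Pkm, 2410006H16Rik and Mt2 stood out in 1 member. Pkm ranged over 0 to 26 thinned UMIs (median 1, excess CV 1.12), and 55 members had 0. The member with 26 had 29435 UMIs before thinning, and it was the highest cell for 6 of the 20 most variable genes: Pkm, Xist, Malat1, Mt2, Ugcg and 2410006H16Rik. Without it the excess CV of Pkm was 0.80, that of the non-coding RNA 2410006H16Rik was 0.21 in place of 0.56, and that of Mt2 was 0.48 in place of 0.59. Without it 19 genes reached 0.5, all among the 23. Ugcg, the glucosylceramide synthase, kept 0.51 without it, and Xist kept 1.48. Slc25a4 and Psmb10 were not high in that member, which held 0 and 1 thinned UMIs of them. Slc25a4, the mitochondrial ADP/ATP carrier, had an excess CV of 0.60 in CS CFUE, 0.42 in CS BFUE, 0.39 in FACS CFU-E cells and 0.49 in PE-high. Psmb10, an immunoproteasome subunit, had 0.54 in CS CFUE, 0.47 in CS BFUE, 0.18 in FACS CFU-E cells and 0.28 in PE-high, at means of 2.87 thinned UMIs in CS CFUE, 2.56 in CS BFUE, 2.86 in FACS CFU-E cells and 3.13 in PE-high. These differences between pools were not tested.

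Pkm varied together with other glycolytic genes across members. Its r with the sum of the other genes of the list was 0.59 over 181 cells, and 0.54 without the cell of 29435 UMIs. For Ldha, lactate dehydrogenase A, r was 0.56 with that cell and 0.57 without it. For the red cell form Pklr, r was -0.05 with it and -0.08 without it.

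List sums showed how stages and cell cycle were spread over the pool. The CFU-E stage sum ranged over 87 to 265 thinned UMIs per cell in CS CFUE (median 157), 13 to 102 in CS BFUE (median 65) and 34 to 318 in FACS CFU-E (median 206). Its excess CV was 0.20 in CS CFUE, 0.34 in CS BFUE, 0.18 in FACS CFU-E cells and 0.31 in PE-high. The early progenitor sum ranged over 0 to 28 (median 9) in CS CFUE and 6 to 155 (median 45) in CS BFUE, so the pools overlapped in both sums. The S phase sum ranged over 65 to 181 and the G2/M sum over 100 to 255 in CS CFUE.

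Across the 181 members the CFU-E stage sum was high where the heme sum was high (r 0.73), counted without the 3 genes that both lists hold. The 47 members with the highest CFU-E stage sums had a median of 37 UMIs of the 18 other heme genes, and the 46 with the lowest had 22. FACS CFU-E had an r of 0.64 and PE-high one of 0.82. The sum of ribosome building and growth genes ran the other way, with r -0.66 in CS CFUE, -0.62 in FACS CFU-E, -0.36 in PE-high and 0.49 in CS BFUE. Its median was 325 UMIs in the 47 members of highest CFU-E stage sum and 442.5 in the 46 of lowest. All cells of a pool share 1 library, and the sums share the fixed total of 15000 UMIs, so the correlations are descriptions. Genes outside the list that followed the CFU-E stage sum closely included Fth1 (r 0.70), Hba-a1 (0.62), the peroxidase Gpx1 (0.47), the glutathione transferase Gstm5 (0.44) and the fatty acid binding protein Fabp5 (0.43). Hba-a1 was among the globins used to choose members, so its range was limited by that rule. The CFU-E stage sum also followed the second deposited component, a corrected score of the authors (r 0.85).

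S phase and G2/M sums were inversely related, with r -0.28 in CS CFUE, -0.41 in FACS CFU-E, -0.32 in PE-high and -0.63 in CS BFUE. Genes outside the list closest to the S phase sum were Hist1h1b (r 0.40), the chaperones Hsp90aa1 (0.37) and Hspd1 (0.37), the chromatin factor Baz1b (0.36), Hist1h1e (0.34) and the septin Sept7 (0.34). Those close to the G2/M sum included Incenp of the chromosomal passenger complex (r 0.54), Arl6ip1 (0.50), Prc1 of the spindle midzone (0.49), the checkpoint gene Bub3 (0.42) and Malat1 (0.32). The G2/M sum followed the UMI total of the cell before thinning, with r 0.53 in CS CFUE and 0.45 in CS BFUE of the same library, against 0.14 in FACS CFU-E cells and 0.11 in PE-high of the second.

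**Figure D4:**
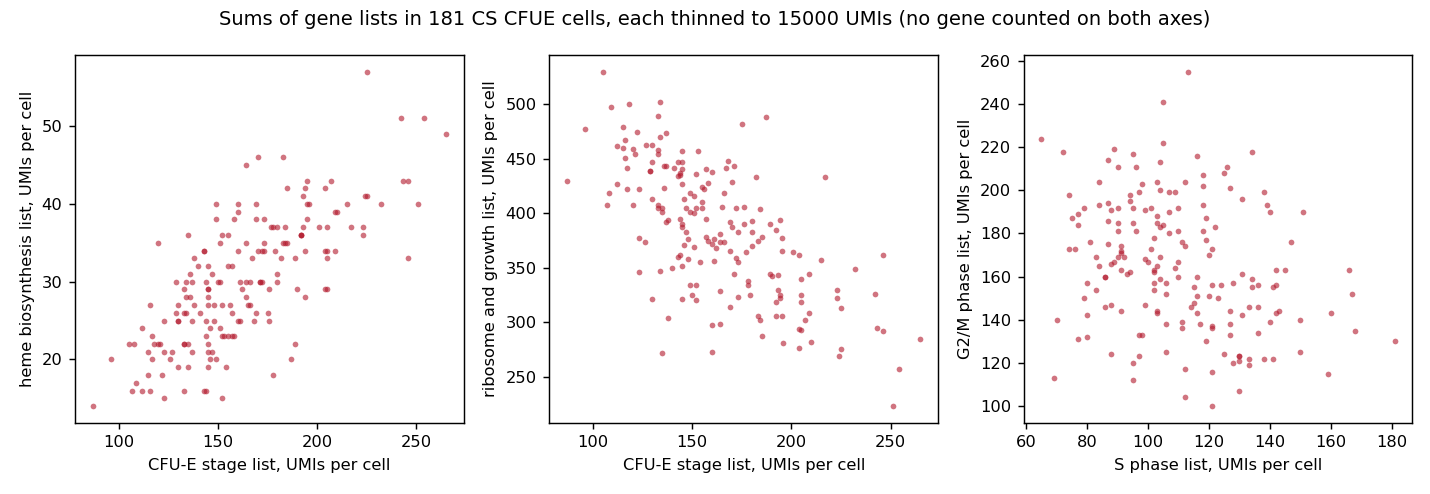
Sums of thinned UMIs per cell in 181 CS CFUE cells: heme against CFU-E stage (left), ribosome building and growth against CFU-E stage (middle), and G2/M against S phase (right). Each point is a cell, and Pearson r is 0.73, -0.66 and -0.28.

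Against the pools of like name in the second library, the ratios of CS CFUE were shifted in their median. The median log2 ratio was -0.23 to FACS CFU-E over 3213 genes and -0.25 to PE-high over 3250 genes, so changes are also given relative to it. To FACS CFU-E 143 genes (4.45%) were higher and 223 (6.94%) lower in CS CFUE, and relative to the median 244 (7.59%) were higher and 27 (0.84%) lower. To PE-high 147 (4.52%) were higher and 229 (7.05%) lower, and relative to the median 269 (8.28%) were higher and 23 (0.708%) lower. Of the 143 higher and 223 lower genes to FACS CFU-E, 22 and 100 passed the 50 CPM filter in 1 pool only. Of the 147 and 229 to PE-high it was 19 and 100, and the direction of all such genes follows from the filter. Afp, fetal alpha-fetoprotein, and Alb had the highest ratios to FACS CFU-E, at 61.5 and 55.6 CPM in CS CFUE and 0.665 CPM each in FACS CFU-E. Most of those UMIs sat in the 2 members described above, without which Alb stood at 14.6 CPM and Afp at 13.4 CPM.

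The genes next in order encode small ribosomal proteins. Rps29 stood at 3435 CPM in CS CFUE, 816 in FACS CFU-E cells and 836 in PE-high, and Rps28 at 2990 CPM in CS CFUE, 759 in FACS CFU-E cells and 739 in PE-high. Rps27 stood at 176 CPM in CS CFUE, 31.4 in FACS CFU-E cells and 35.5 in PE-high. Rpl41 stood at 6019 CPM in CS CFUE and 1556 in PE-high, and the actin-binding profilin Pfn1 at 804 in CS CFUE and 205 in FACS CFU-E. Ribosomal protein genes with near-identical pseudogene copies are uncertain. The lowest ratios belonged to AY036118 (31.7 CPM in CS CFUE, 180 in FACS CFU-E, 186 in PE-high) and the pseudogene Rpl10-ps3 (17.7 CPM in CS CFUE, 72.7 in FACS CFU-E, 68.0 in PE-high). Lars2, a mitochondrial leucyl-tRNA synthetase, stood at 55.0 CPM in CS CFUE, 190 in FACS CFU-E cells and 174 in PE-high. Ung, the uracil DNA glycosylase of replicating cells, stood at 25.7 CPM in CS CFUE, 77.7 in FACS CFU-E cells and 84.5 in PE-high. Gm42418 stood at 1511 CPM in CS CFUE and 4951 in FACS CFU-E, and C2cd4a at 12.7 CPM in CS CFUE and 56.7 in FACS CFU-E. Tmsb4x, an actin-binding thymosin, stood at 61.5 CPM in CS CFUE and 187 in PE-high, and Cmtm7 at 22.3 CPM in CS CFUE and 67.6 in PE-high.

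The same library difference was read from the early pools, CS BFUE over FACS BFU-E, which share no cell with these. Over 2933 genes compared in both pairs the log2 ratios had a Pearson r of 0.898 across genes. Of 138 genes higher in CS CFUE than FACS CFU-E, 120 (87.0%) were also higher in CS BFUE than FACS BFU-E, which is 83.9% of its 143. Of 162 lower genes 114 (70.4%) were also lower, 28.5% of its 400, and 0 were past the fold in opposite directions. Of 85 ribosomal protein genes 29 were higher and 3 lower in CS CFUE than in FACS CFU-E (median log2 ratio 0.40). Over all 3213 genes of that comparison 4.45% were higher and 6.94% lower (median -0.23). Library and isolation cannot be told apart in these pairs.

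**Figure D5:**
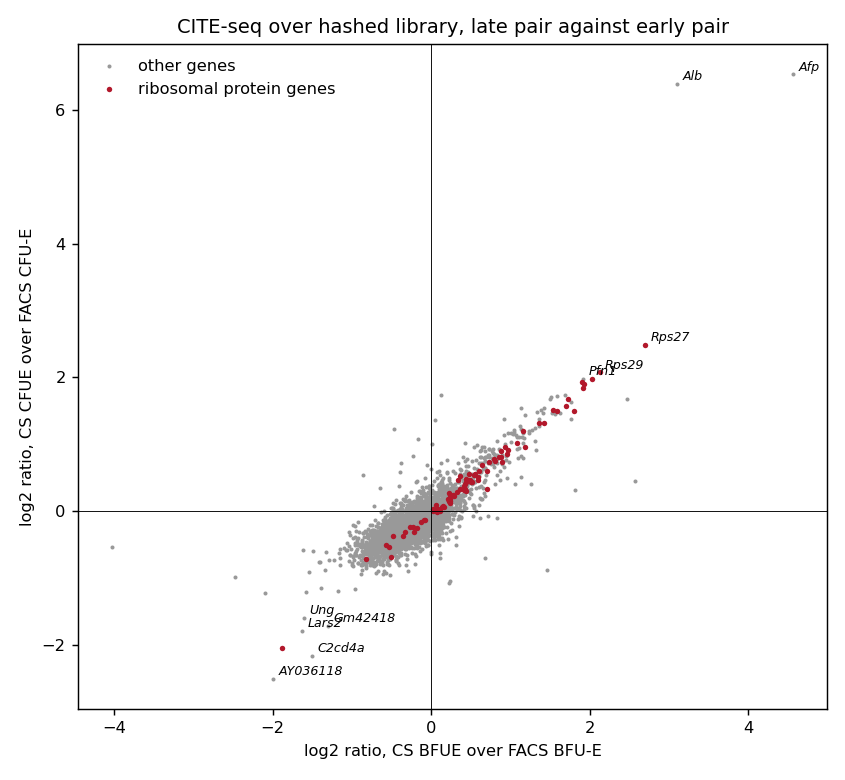
Log2 ratio of CS CFUE over FACS CFU-E (vertical axis) against log2 ratio of CS BFUE over FACS BFU-E (horizontal axis). Points are the genes compared between CS CFUE and either FACS CFU-E or CS BFUE. Red points are ribosomal protein genes. Most genes lie along a rising line, and Alb and Afp lie above it. The r of 0.898 is over the 2933 genes compared in both pairs, not over all points.

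The metallothioneins differed between the libraries as well. Mt1 stood at 2183 CPM in CS CFUE, 979 in FACS CFU-E cells and 983 in PE-high, and Mt2 at 855 CPM in CS CFUE, 411 in FACS CFU-E cells and 362 in PE-high. In the early pools Mt1 stood at 1296 CPM in CS BFUE and 632 in FACS BFU-E. Fkbp5, a glucocorticoid target named after its value was seen, stood at 6.64 CPM in CS CFUE, 11.5 in FACS CFU-E cells and 11.9 in PE-high. The label markers, as a summed list, stood at 1240 CPM in CS CFUE, 1764 in FACS CFU-E cells and 1483 in PE-high, and Kit stood at 73.3 CPM in CS CFUE, 43.4 in FACS CFU-E cells and 55.3 in PE-high. The cells of both pools were chosen by globin sums, so globin levels are a description here too. Hba-a1 stood at 155 CPM in CS CFUE and 124 in FACS CFU-E, short of the fold. Hbb-bt stood at 74.2 CPM in CS CFUE and 136 in FACS CFU-E.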

How the data were processed

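For both libraries together the authors deposited natural log values of 1 plus UMIs per 10000, with 3357 cells against 17608 Ensembl gene IDs, and a cell table with names and 2 component scores described as corrected in the file headers. Build mm10, Scanpy and Cell Ranger 4.0.0 are named, per the submitters' processing notes. With the log undone, dividing by each cell's smallest value gave whole UMI counts for all 16419767 nonzero values (100%, tolerance 0.02). A symbol was found for 17592 IDs. The library of a cell was read from its barcode suffix, the CITE-seq library by elimination. Members and gene lists (30 lists, 587 of 599 entries in the table) were chosen with earlier results of these data known.

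UMIs were summed per pool. Named genes are the 12 highest and 12 lowest ratios to CS BFUE, the 6 and 6 of each other comparison, up to 4 past the fold per list, the 20 of largest excess CV and the 6 closest to a list sum, of which a few are not reported here. Ratio and spread steps were tested on simulated counts. Python 3.11.15, numpy 2.4.6, pandas 2.3.3, scipy 1.17.1 and matplotlib 3.10.9 were used. Depth per cell limits genes under about 50 CPM, and all intervals cover counting error only.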

Additional observations from a re-analysis of the deposited data

How the results depend on the processing

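No paired analysis was possible because the 2 samples are 1 library each, the pools are sets of cells within a library with no replicate number, and no replicate could be left out. Of 141 values recomputed, 101 stayed within their counting interval, 1.5 times a count or excess CV, or 0.1 of an r, and 40 moved. Of the 48 that could change sign (list ratios and correlations) 0 did. The 101 include values from settings that changed nothing, namely no filter on the share of cells and an Mpo limit of 2 UMIs. With genes from 20 CPM, CS CFUE over CS BFUE gave 491 higher and 533 lower, and 480 genes were lower against FACS CFU-E and 511 against PE-high. At a fold of 2 the counts were 110 higher and 91 lower against CS BFUE, 57 and 11 against FACS CFU-E, and 55 and 14 against PE-high. With the median ratio set to 1 they were 244 and 27 against FACS CFU-E and 269 and 23 against PE-high. The share of higher genes among those past the fold was then 47.0% against CS BFUE in place of 57.0%, 90.04% against FACS CFU-E in place of 39.1%, and 92.1% against PE-high in place of 39.1%. Leaving out cells rich in hepatocyte UMIs or with both Xist and Y-linked UMIs, both added after seeing the data, kept each count within 1.5 times.

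The log2 ratios of list sums to CS BFUE, in the order CFU-E stage, early progenitor, heme, membrane, S phase and G2/M, were 1.35, -2.21, 1.10, 0.95, 0.24 and 0.16. With the median ratio set to 1 they were 1.28, -2.28, 1.02, 0.87, 0.16 and 0.093. With cells weighted equally the CFU-E stage, early progenitor, heme and G2/M values were 1.41, -2.31, 1.17 and 0.21. With no exclusions the CFU-E stage, early progenitor, heme and membrane values were 1.70, -2.40, 1.39 and 1.13. Without the tenth of cells with most UMIs the CFU-E stage, early progenitor, heme, S phase and G2/M values were 1.41, -2.29, 1.16, 0.21 and 0.22. Filters on genes do not enter these sums.

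Genes of excess CV 0.5 numbered 13 with thinning to 10000 UMIs (10 of them among the 23), 67 at a limit of 0.4 and 72 from a mean of 1 UMI. Thinning to 10000 gave r 0.58 for CFU-E stage and heme, and -0.42 for heme and ribosome growth in place of -0.62. For CFU-E stage and membrane, r was 0.30, 0.51 with natural log values summed and 0.48 with no exclusions. Other than by construction, the cause was not tested.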

Other observations

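The genes of highest CPM in CS CFUE that are neither mitochondrial nor ribosomal in name were the chromatin protein Ptma (6470 CPM), the nucleolar Npm1 (6444), the elongation factor Eef1a1 (5501), the chaperone Hsp90ab1 (4853), Fth1 (4492), Fau (4365), Ncl (4242), Hsp90aa1 (3646), Ppia (3584) and Tpt1 (3126). Of these, Fth1 alone was past 1.5-fold against CS BFUE. The scale has no length term, so it orders captured 3' ends and not transcript size. The first deposited component ranged over -9.41 to 5.11 in CS CFUE (median -5.58) and 1.77 to 41.0 in CS BFUE (median 9.13). Genes that ran most strongly against the CFU-E stage sum within CS CFUE were the nucleolar Npm1 (r -0.52), Ncl (-0.46) and Nolc1 (-0.43). The long non-coding RNAs Snhg1 and Gas5 had excess CVs of 0.43 and 0.24, which were 0.12 and 0.07 without the member of 29435 UMIs.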
